A study of Saccharomyces cerevisiae with 36 samples.

Results

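The 43 genes described here encode factors of the small-subunit (SSU) processome and of 40S ribosomal subunit assembly in *Saccharomyces cerevisiae*. They were taken by systematic name from a list of box C/D proteins, UTP proteins and other 40S assembly factors, without use of their expression values. All 43 of 43 names were found among the 6172 genes with deposited normalized counts. Expression was measured by RNA-seq in BY4741 cells grown in rich medium, in 36 samples that formed 12 groups of 3 replicates. Cells of *mip6Δ* (mip6d in the labels), a deletion of *MIP6*, whose product binds RNA, were compared with WT cells, both in the BY4741 background. In the memory condition, cells had gone through a heat shock of 20 min and 60 min of recovery before the heat shock that was sampled. The no-memory cells came from the other flask of the same split culture and met that heat shock as their only one. Each strain and condition was sampled at 0, 15 and 20 min, so that 0 min of memory is the end of the recovery and not an untouched culture.

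The SSU processome is the large particle that forms on the 5′ end of the nascent ribosomal RNA precursor while RNA polymerase I is still transcribing it. Its subcomplexes UTPA and UTPB bind the leader of the precursor, the box C/D particle that carries the U3 small nucleolar RNA pairs with it, and helicases, a GTPase and modifying enzymes later remodel the particle into the precursor of the 40S subunit. In yeast, the genes of these factors belong to the ribosome biogenesis regulon, which is known to be repressed together in many stresses and when growth slows. Many of their promoters carry short elements named PAC and RRPE, which are known as sites of the repressors Dot6 and Tod6 and of Stb3.

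The libraries held 28270651 to 42233578 reads assigned to genes. *MIP6* had 0 reads in each of the 18 *mip6Δ* libraries, against 134 to 626 reads in the WT libraries, and the a-type mating genes *STE2* (3618 to 30427 reads in *mip6Δ* and 5180 to 27786 reads in WT), *MFA1*, *MFA2* and *BAR1* were read in all libraries, as the *MATa* strain BY4741 should have them. Of the alpha-type genes, the pheromone genes *MF(ALPHA)1* and *MF(ALPHA)2* had at most 44 reads in any library. The third, *STE3*, was read in all libraries, with 130 to 685 reads in *mip6Δ* and 137 to 666 reads in WT. The library of *mip6Δ* no memory at 15 min replicate 1 stood apart from the other replicates of its group. The median normalized count of the 43 members was 623 in it and 1198 and 1585 in replicates 2 and 3, and the small-subunit ribosomal protein (RPS) genes were also lowest there, with medians of 1296, 1699 and 2421 in replicates 1 to 3. *mip6Δ* memory at 0 min replicate 2 has a title of time 0 and a time field of 20, and it was used as 0 min. Over all genes its profile, centred on the mean of all samples, had a mean correlation of 0.95 with the other 0 min samples of its group and of -0.21 with the 20 min samples.

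PAC and RRPE were looked up in 300 bases around the start of each gene, 250 before and 50 from the first coding base on, in the RefSeq R64 genome, the assembly that sacCer3 is made from. PAC was searched as GATGAG or CTCATC and RRPE as AAAAATTT or AAATTTTT, so that both strands were covered. PAC letters were found in 39 of 43 members (90.7%), against 20.3% of the 5902 protein-coding genes of the table. RRPE letters were found in 34 of 43 (79.1%), against 14.2%, and both in 32 of 43 (74.4%), against 5.71%. The genes of 60S assembly held both in 43 of 54 and the RPS genes in 0 of 54. The stretches printed here run 5′ to 3′ along each gene's own strand, with PAC and RRPE letters in capitals. *KRE33*, *RRP5* and *UTP20* had the largest falls at 15 min in WT no-memory cells, *NOP1* had the highest level per kilobase, and *RRP9*, *LCP5* and *RRP7* are among those with the smallest responses. The stretch of *KRE33* is chrXIV:375113-375205 (+), that of *RRP5* chrXIII:731249-731320 (−), that of *UTP20* chrII:227406-227489 (+), that of *NOP1* chrIV:427114-427185 (+), that of *RRP9* chrXVI:802219-802264 (+), that of *LCP5* chrV:414285-414432 (+) and that of *RRP7* chrIII:65674-65721 (−), all upstream of the coding starts.
KRE33: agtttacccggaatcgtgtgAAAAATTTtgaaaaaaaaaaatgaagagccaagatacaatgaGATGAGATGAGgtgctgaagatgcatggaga
RRP5: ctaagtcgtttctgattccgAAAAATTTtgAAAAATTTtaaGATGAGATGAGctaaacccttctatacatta
UTP20: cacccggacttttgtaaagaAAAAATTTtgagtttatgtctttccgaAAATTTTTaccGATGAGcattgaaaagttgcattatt
NOP1: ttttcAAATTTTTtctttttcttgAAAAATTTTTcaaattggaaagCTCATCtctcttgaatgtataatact
RRP9: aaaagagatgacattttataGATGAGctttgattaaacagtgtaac
LCP5: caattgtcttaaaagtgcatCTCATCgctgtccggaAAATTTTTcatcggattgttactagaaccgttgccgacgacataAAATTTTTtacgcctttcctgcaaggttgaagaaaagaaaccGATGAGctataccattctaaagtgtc
RRP7: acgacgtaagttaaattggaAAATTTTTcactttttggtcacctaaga

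*KRE33* and *RRP5* hold RRPE letters followed by 2 overlapping copies of GATGAG, and *UTP20* holds both elements as well. *RRP9* holds PAC only and *RRP7* RRPE only. The stretch of *LCP5* lies between its own start and that of *NSA2*, a gene of 60S assembly read the other way, and the 2 starts are 301 bases apart. *UTP15* also lacks PAC letters, and *UTP22* and *EMG1* hold neither element in this window. The 2 members with neither had heat responses of -1.57 (*UTP22*) and -1.79 (*EMG1*) on the log2 scale in WT no-memory cells at 15 min, within the range of the 32 members with both (-3.51 to -0.32, median -1.75). The 2 with RRPE only had -0.88 (*UTP15*) and 0.051 (*RRP7*). A match of letters is a description of the window and nothing was tested about binding.

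Levels are given as the authors' normalized counts, which are read counts after TMM scaling and batch removal, on a linear scale and relative to the rest of each library. In bulk RNA, less transcript per cell and fewer cells that hold it cannot be told apart, nor can a change in total mRNA be seen. In WT cells before any heat shock (no memory, 0 min), the mean normalized count per kilobase of annotated gene had a median of 1739 over the members, against 1391 over all protein-coding genes. The box C/D proteins were highest on this scale. *NOP1* (YDL014W), the rRNA methyltransferase fibrillarin, had 24827 per kilobase, *NOP56* 11195 and *NOP58* 10005. The lowest were the helicase gene *DHR2* with 433, *UTP20* with 748 and the helicase gene *ECM16* with 826 per kilobase. Summed over the 43 genes, the share of all reads was 0.815% to 0.921% in *mip6Δ* memory, 0.628% to 0.706% in *mip6Δ* no memory, 0.672% to 0.876% in WT memory and 0.507% to 0.575% in WT no memory at 0 min. At 15 min it was 0.361% to 0.56% in *mip6Δ* memory, 0.0857% to 0.254% in *mip6Δ* no memory, 0.419% to 0.528% in WT memory and 0.14% to 0.18% in WT no memory. Every memory library thus had a larger share than every no-memory library of its strain and time at both of these times.

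The first question was how the processome genes respond to heat in cells with and without an earlier heat shock. At 15 min, 37 of 43 members were lower than at 0 min in *mip6Δ* memory cells, against 42 of 43 in *mip6Δ* no-memory cells (limma, Benjamini-Hochberg adjusted p under 0.05 over 6172 genes). The medians of the log2 difference were -1.03 and -2.05, where 34.6% and 37.9% of all genes were called lower. Without the outlying *mip6Δ* library, the no-memory median at 15 min was -1.71, with 41 members lower. In WT, 26 of 43 were lower at 15 min in memory cells and 42 of 43 in no-memory cells, and no member was called higher in either strain. The median log2 difference was -0.67 with memory and -1.59 without, that is 1.6-fold and 3.01-fold lower than at 0 min. Over all genes, 32.1% were called lower with memory and 37.3% without, and the median of all genes was 0.043 and 0.037.

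By role, the median falls in WT no-memory cells at 15 min were deepest for the helicases (-2.63), the late and enzyme factors (-2.16) and the box C/D proteins (-2.15). *KRE33* (YNL132W), the rRNA acetyltransferase, was at 2500.1, 1833 and 1582 in WT memory cells at 15 min, against 5774, 6443 and 5783 at 0 min. In WT no-memory cells it was at 442, 425 and 429.6 at 15 min, against 6039, 5367 and 3742 at 0 min. Both conditions were separated from their 0 min samples in every replicate, and the log2 differences were -1.63 ± 0.32 with memory and -3.51 ± 0.32 without (SE, n = 3). *RRP5* (YMR229C), needed for both ribosomal subunits, was at 4609, 3549.97 and 3121 in WT memory cells at 15 min, against 9433, 11180.4 and 8693 at 0 min. In WT no-memory cells it was at 775, 772 and 914 at 15 min, against 9053, 9656 and 5273 at 0 min. Its log2 differences were -1.39 ± 0.28 with memory and -3.24 ± 0.28 without. *UTP20* (YBL004W), a large late-joining factor, had 2108, 1759.7 and 1458 in WT memory cells and 737, 786 and 659.7 in WT no-memory cells at 15 min, and fell by 1.95 and 2.92 on the log2 scale. It had the largest fall of all members in WT memory cells, where *KRR1*, a KH domain factor, was next with -1.94.

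All 4 helicase genes were lower at 15 min in both WT conditions, with median log2 differences of -1.21 with memory and -2.63 without. *ECM16*, whose product Dhr1 removes U3 from the particle, was at 2306, 1803 and 1614 in WT memory cells and at 455, 420.3 and 490.2 in WT no-memory cells at 15 min. At 0 min it was at 4397, 4716 and 3969 in memory cells and 3658, 3610.2 and 2156 in no-memory cells, so that the times did not overlap in either condition. The box C/D proteins had medians of -1.21 with memory and -2.15 without, and their spread was wide. *NOP1* had 10779.6, 8128 and 8004 in WT memory cells and 5248, 4063 and 4945 in WT no-memory cells at 15 min, and its log2 differences were -1.46 ± 0.22 and -2.36 ± 0.22. *NOP58*, a core protein of the same particles, fell by 0.95 with memory and 1.95 without. *RRP9*, the protein particular to the U3 particle, fell by 0.76 without memory (adjusted p = 1.08e-05, limma), and in memory cells its log2 difference was 0.15 ± 0.14 (adjusted p = 0.32).

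UTPA, which binds the precursor first, had 3 of 7 genes lower with memory and 7 of 7 without, with medians of -0.42 with memory and -1.58 without. Its largest member *UTP10* was at 5779, 4330.2 and 3562 in WT memory cells at 15 min, against 1676, 1193 and 1294 in WT no-memory cells, and *UTP8* was at 4026, 3105 and 2512 against 1065, 787 and 848. The memory and no-memory samples of both genes did not overlap at 15 min. UTPB, a complex mostly of WD-repeat proteins, had 2 of 6 genes lower with memory and 6 of 6 without. Its medians were -0.39 with memory and -1.66 without. *PWP2* fell by 0.72 with memory and 2.07 without, and *DIP2* had -0.49 ± 0.29 with memory (adjusted p = 0.14, limma) and -1.81 ± 0.29 without. In the Mpp10 complex with Sas10, 3 of 4 genes were lower with memory and 4 of 4 without. Here *MPP10*, the protein that names the complex, had -0.74 ± 0.17 and -1.53 ± 0.17, and *IMP4*, its RNA-binding partner, -0.91 ± 0.21 and -1.59 ± 0.21. *BMS1*, the GTPase of the particle, had -0.78 ± 0.21 with memory and -2.13 ± 0.21 without, and its partner *RCL1* -0.24 ± 0.14 and -0.75 ± 0.14.

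All 6 late and enzyme factors were lower in both WT conditions at 15 min. Besides *KRE33*, *RRP5* and *KRR1*, *EMG1*, an rRNA pseudouridine methyltransferase, fell by 0.72 with memory and 1.79 without, and *ENP1*, which stays with the particle until its export, by 0.56 and 1.36. *NOC4* had the smallest falls of this group, -0.54 and -1.34. Of the other 8 processome factors, 4 were lower with memory and 8 without. *UTP22*, which joins as the UTPC complex with Rrp7, had -0.29 ± 0.16 with memory (adjusted p = 0.103, limma), with samples at 7564, 7162 and 6066 at 15 min and 7579, 9768 and 8172 at 0 min. Without memory it had -1.57 ± 0.16, with 3090.4, 2419.7 and 2254 at 15 min and 7112, 8423 and 7358 at 0 min, a gap far wider than in memory cells.

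In UTPA, *NAN1* fell by 0.89 with memory and 1.69 without, and *UTP4*, *UTP5*, *UTP9* and *UTP15* had log2 differences of -0.38, -0.42, -0.28 and -0.15 with memory, none past the threshold. Without memory these 4 fell by 1.58, 1.31, 1.37 and 0.88. In UTPB, *UTP21* fell by 0.61 with memory and 1.82 without, whereas *UTP13*, *UTP18* and *UTP6* had -0.30, -0.23 and -0.15 with memory, none past the threshold, and fell by 1.51, 1.17 and 0.90 without. *NOP56*, the partner of *NOP58* in the box C/D core, fell by 1.52 with memory and 2.66 without. Among the helicases, *ROK1* fell by 1.21 and 2.69, *DHR2* by 1.35 and 2.56, and *DBP8* by 0.69 and 1.05. *ENP2*, which works in a module with *BFR2* and *LCP5*, fell by 1.55 and 2.75, and *BFR2* had -0.47 ± 0.24 with memory (adjusted p = 0.0882, limma) and -1.18 ± 0.24 without. *UTP14*, which activates the helicase Dhr1, had -0.60 ± 0.31 with memory (adjusted p = 0.0892, limma) and fell by 1.94 without.

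Only *RRP7* among the members was not called in WT no-memory cells. This gene (YCL031C) encodes the partner of Utp22 and was at 3903, 3439.9 and 3522 in WT memory cells and at 3025, 2585 and 2862 in WT no-memory cells at 15 min. At 0 min it was at 3265, 3347 and 3500.2 in memory cells and 2755, 2923 and 2501 in no-memory cells, and the times overlapped in both conditions. Its log2 differences at 15 min were 0.10 ± 0.10 with memory and 0.051 ± 0.10 without (adjusted p = 0.361 and 0.645, limma). In *mip6Δ* they were -0.018 ± 0.10 and -0.044 ± 0.10. *LCP5* and *SOF1* had the next smallest falls in WT no-memory cells, -0.32 ± 0.14 and -0.60 ± 0.17, and the call of *LCP5* was lost with edgeR's quasi-likelihood test on read counts (adjusted p = 0.0702, against 0.0468 with limma). In WT memory cells, *LCP5* and *SOF1* had log2 differences of 0.11 ± 0.14 and 0.019 ± 0.17, neither past the threshold.

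**Figure D1:**
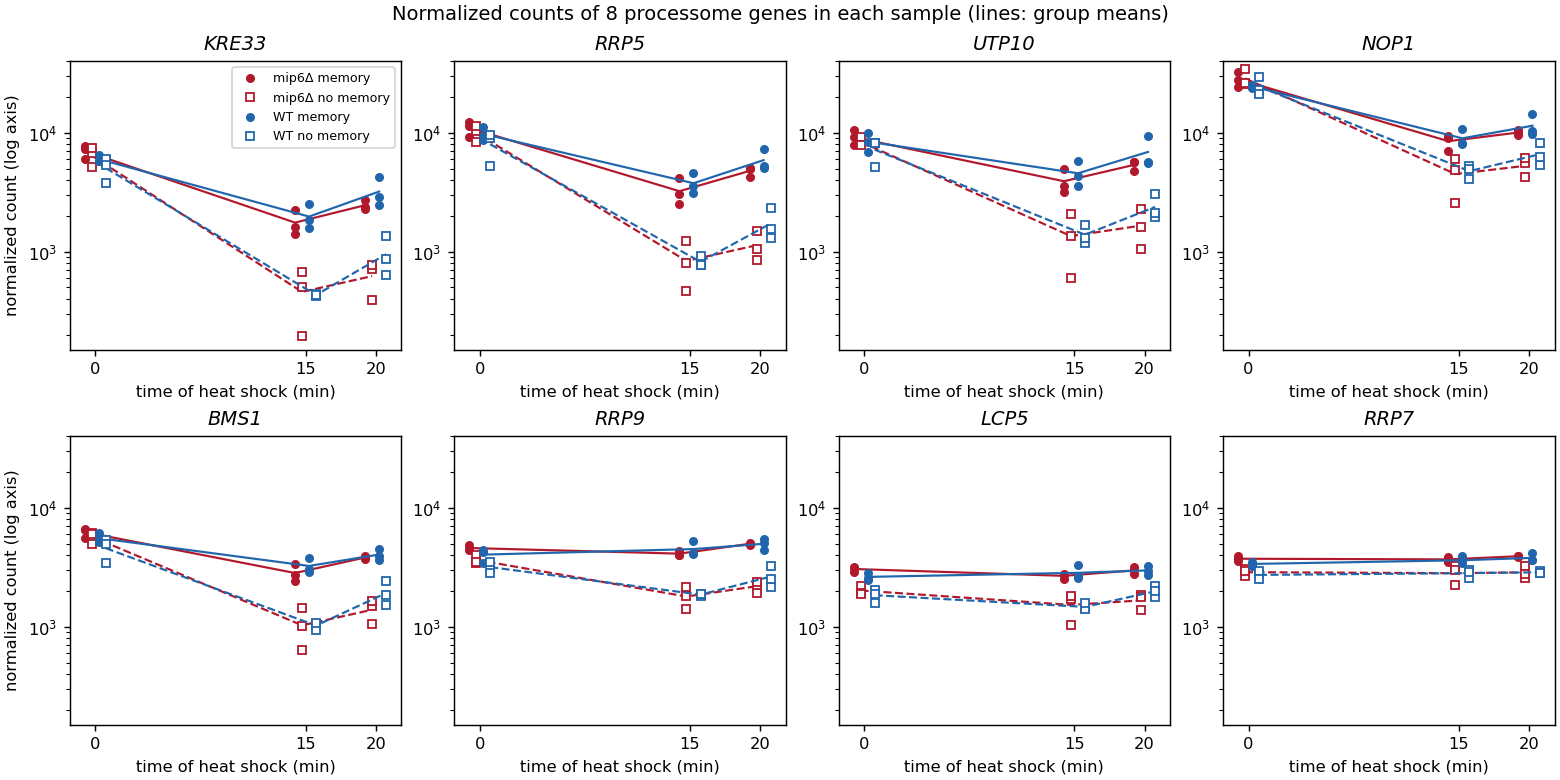
Normalized counts (log axis) of 8 processome genes at 0, 15 and 20 min of heat shock, with 1 point for each sample and lines through the group means, for *mip6Δ* memory (red, filled), *mip6Δ* no memory (red, open), WT memory (blue, filled) and WT no memory (blue, open). At 15 min the memory samples of *KRE33* lie at 1401, 1623 and 2239 (*mip6Δ*) and 2500.1, 1833 and 1582 (WT), above all no-memory samples, whereas *RRP7* stays near its 0 min level in all 4 conditions.

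**Figure D2:**
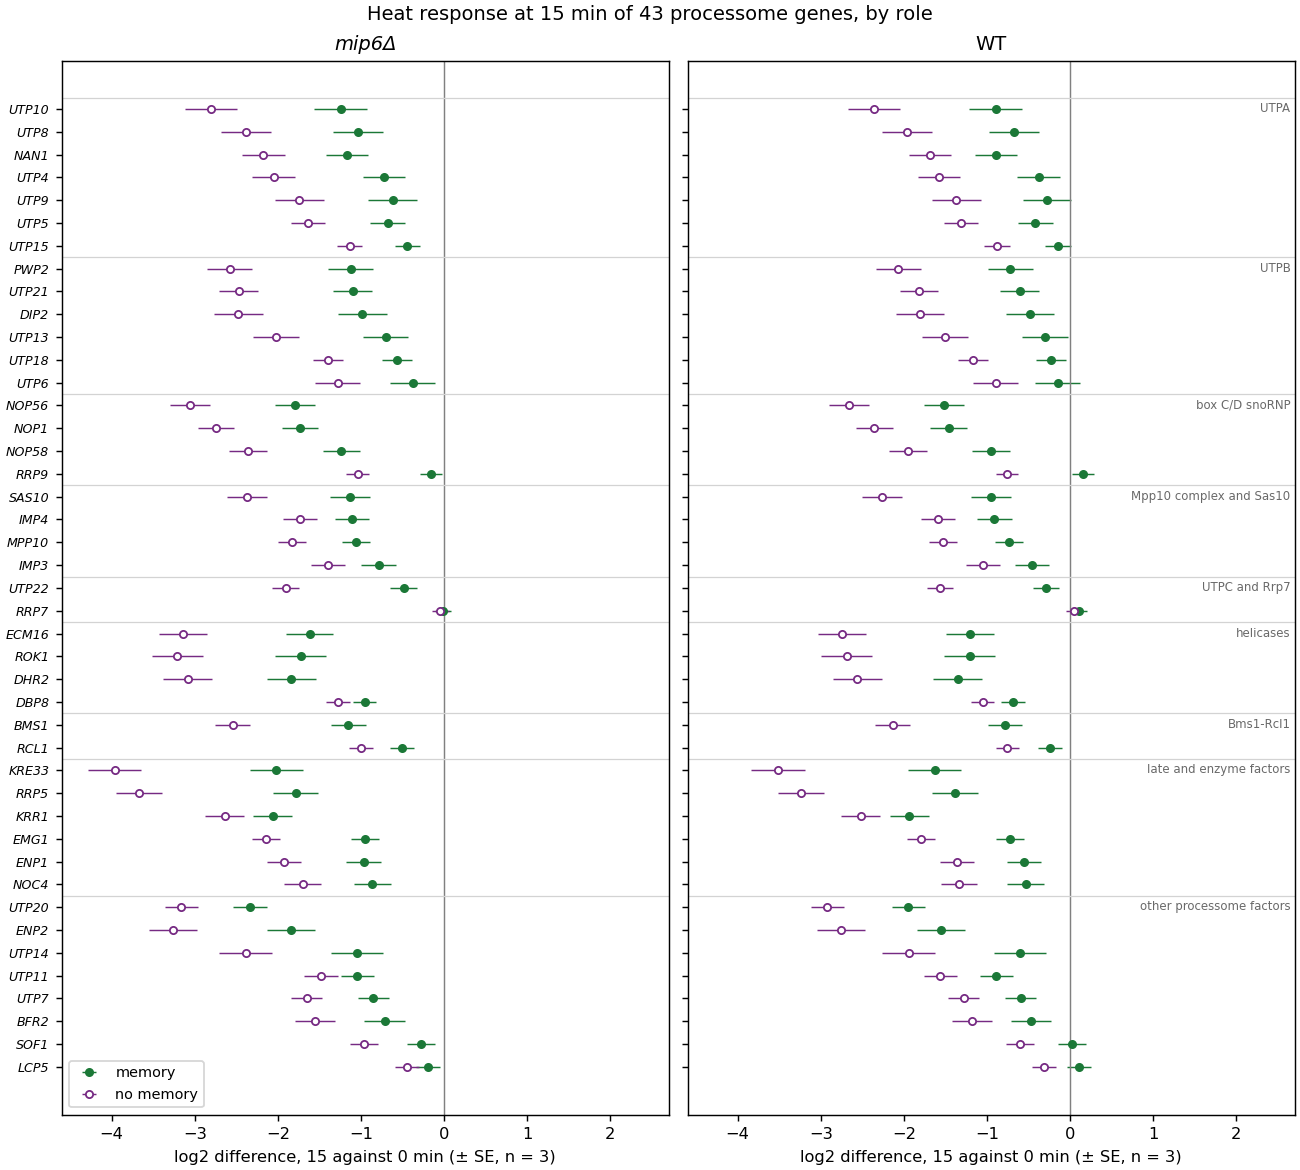
Log2 difference between 15 and 0 min for each of the 43 members, grouped by role, with memory (filled) and without (open), in *mip6Δ* (left) and WT (right), with bars of the SE from the limma fit. In both strains the memory point lies to the right of the no-memory point for all 43 members, and *RRP7* lies next to 0 in both conditions.

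At 20 min the falls were smaller. In *mip6Δ*, 27 of 43 members were lower than at 0 min in memory cells and 41 of 43 in no-memory cells, with medians of -0.64 and -1.68, beside 32.5% and 36.7% of all genes. In WT, 16 of 43 were lower in memory cells and 37 of 43 in no-memory cells, with medians of -0.30 and -0.99, and 29.7% and 35.1% of all genes were called lower. In WT memory cells, *KRR1* was still at 1698, 1349 and 1452, against 4396, 4625 and 4402 at 0 min, a log2 difference of -1.58 ± 0.23. One member was called higher, *RRP9* in WT memory cells, with 5446, 5083 and 4411 at 20 min against 3421, 4407 and 4284 at 0 min (log2 0.31 ± 0.14, adjusted p = 0.0488 with limma and 0.145 with edgeR). The lowest of its 20 min samples lay just above the highest of its 0 min samples. The count in WT memory cells at 20 min was 5 without replicate 2, 7 without replicate 3 and 28 without replicate 1, and that in WT memory cells at 15 min was 15 without replicate 2. Without replicate 2 it was also 21 in WT no-memory cells and 14 in *mip6Δ* memory cells at 20 min.

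The next question was whether memory cells started the heat shock from another level. At 0 min, 5 of 43 members were called higher in memory than in no-memory cells of *mip6Δ* and 10 of 43 in WT, and none lower. The medians were 0.30 and 0.38 on the log2 scale, and 11.9% and 11.5% of all genes were called higher, so the share of members called in *mip6Δ* was near the background. The difference was positive for 42 of 43 members in *mip6Δ* and 43 of 43 in WT. Every memory sample lay above every no-memory sample for 27 of 43 members in each strain, against 19.8% of all genes in *mip6Δ* and 18.2% in WT. *DHR2* was at 1452, 1871 and 1934 in WT memory cells, against 1274, 1047 and 549.5 in WT no-memory cells (log2 0.95 ± 0.29, adjusted p = 0.0171 with limma and 0.0566 with edgeR). *UTP6*, a UTPB subunit, was at 2515, 2745 and 2359 against 1595, 1649.7 and 1146 (0.81 ± 0.27, adjusted p = 0.0254, limma), and its groups did not overlap. At the other end, *NOP1* was at 25369, 23898 and 24221 in WT memory cells and 29337, 22898 and 21054 in WT no-memory cells (0.018 ± 0.22), and *UTP22* had 0.15 ± 0.16, neither past the threshold.

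The other WT members called at 0 min were *RRP7*, *RCL1*, *LCP5*, *UTP7*, *IMP3*, *UTP11*, *SAS10* and *BFR2*, with log2 differences of 0.31 (*RRP7*) to 0.73 (*BFR2*). *RRP7*, *LCP5*, *IMP3*, *UTP11* and *UTP6* were those called in *mip6Δ*. These counts turned on single libraries. Without WT no memory 0 min replicate 3, whose median over members was 2700.5 beside 3666 and 3633 in replicates 1 and 2, 0 of 43 were called in WT and the median was 0.25. Without replicate 1, 2 or 3 in all groups, 17, 1 and 0 were called in *mip6Δ* and 30, 1 and 0 in WT, and 3 were called in *mip6Δ* without the library of 2 labelled times. Without the outlying *mip6Δ* library it was 12 in *mip6Δ* and 18 in WT. Some heat shock transcripts also differed between the conditions at 0 min. *HSP104*, the heat-induced disaggregase, was at 16403, 10003 and 7276 in *mip6Δ* memory cells, against 125300, 74620.5 and 76918 in *mip6Δ* no-memory cells. It was at 76590.2, 16486 and 7559 in WT memory cells, against 140579, 103685 and 89303 in WT no-memory cells, so that the memory samples were lower in both strains without overlap. *HSP42*, a small chaperone, was likewise lower, with 19667, 3078 and 1729 in WT memory and 50451, 34423 and 36762 in WT no-memory cells. *HSP26* and *HSP78* were also lower in both strains without overlap. *HSP12* overlapped between the conditions in both strains, with 1206, 656 and 994 in WT memory and 1122, 885 and 1921 in WT no-memory cells. At 15 min *HSP104* was at 434704 to 790074 in WT no-memory cells. The part of this difference in that of the members was not tested. Without WT memory 0 min replicate 1, the WT memory library with the most *HSP104*, 10 members were called. With every library scaled to the same sum, the median of all genes was 0.17 in *mip6Δ* and 0.20 in WT, with 17 and 29 members called. Relative to that shift the members' median was 0.29 in *mip6Δ* and 0.38 in WT. edgeR on read counts called 4 members in *mip6Δ* and 6 in WT. The share of all genes called is not given here for equal sums, edgeR or the fits without single libraries. The 17 and 29 members called with equal sums thus have no background beside them.

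During the heat shock the difference covered the whole set. At 15 min, 43 of 43 members were higher in memory than in no-memory cells in *mip6Δ* and 43 of 43 in WT, with medians of 1.43 and 1.32, that is 2.7-fold and 2.49-fold. At 20 min it was again 43 of 43 in both strains, with medians of 1.30 in *mip6Δ* and 1.10 in WT. Over all genes, 27.5% and 29.1% were called higher at 15 min and 29.5% and 28.1% at 20 min in *mip6Δ* and WT. Every memory sample lay above every no-memory sample for 42 members in *mip6Δ* and 43 in WT at 15 min, and for 43 in each strain at 20 min, against 30.3% and 33.1% of all genes at 15 min and 32.7% and 31.4% at 20 min. Without the outlying *mip6Δ* library, the *mip6Δ* median at 15 min was 1.05, with 42 members called. With equal sums the median of all genes at 15 min was 0.20 in *mip6Δ* and 0.23 in WT, those of the members 1.40 and 1.29 above it, and 43 members were called in each. The share of all genes called with equal sums is not given here.

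*RRP5*, *KRE33* and *DHR2* differed most in WT at 15 min. *RRP5* was 4.53-fold higher in memory cells (log2 2.18 ± 0.28, adjusted p = 3.25e-07, limma). *KRE33* was 4.47-fold higher (log2 2.16 ± 0.32). *DHR2* was at 811, 691 and 562 in WT memory cells, against 148, 149 and 158 in WT no-memory cells, 4.46-fold. *RRP7* was lowest in this order, with 1.28-fold (log2 0.36 ± 0.10, adjusted p = 0.00297), close to its log2 difference of 0.31 ± 0.10 at 0 min. *DBP8*, a helicase gene, was next with 1908, 1491 and 1647 in WT memory cells and 973, 1057 and 1103 in WT no-memory cells (1.6-fold). By role, the medians in WT at 15 min were 2.05 for helicases, 1.58 for UTPA, 1.56 for UTPB, 1.22 for the box C/D proteins and 1.22 for the Mpp10 complex with Sas10. The late and enzyme factors had 1.29, the other processome factors 1.29, and *BMS1* and *RCL1* 1.65 and 0.93.

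**Figure D3:**
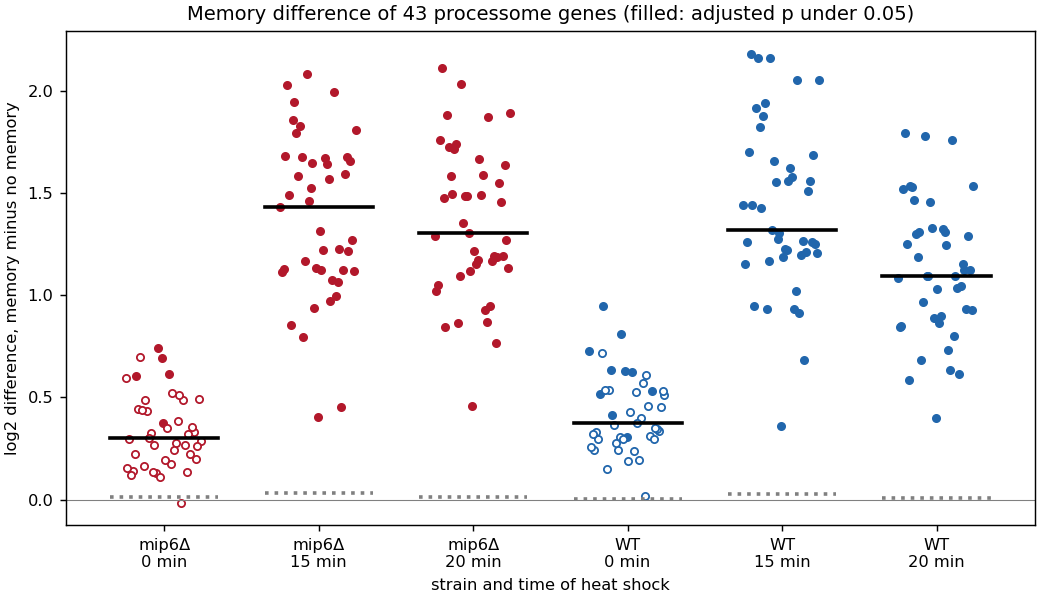
Log2 difference between memory and no-memory cells of the 43 members (1 point each) in *mip6Δ* (red) and WT (blue) at 0, 15 and 20 min of heat shock. Black bars are the medians of the members, dotted grey bars those of all genes, and filled points passed an adjusted p of 0.05 (limma). The medians lie at 0.30, 1.43 and 1.30 in *mip6Δ* and at 0.38, 1.32 and 1.10 in WT.

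Since some levels differed at 0 min already, the responses themselves were compared, as the heat response with memory minus that without. At 15 min this memory effect on the response was positive for 43 of 43 members in both strains, and passed the threshold for 31 in *mip6Δ* and 28 in WT, against 16.4% and 17.5% of all genes. The medians were 1.01 and 0.98 on the log2 scale. At 20 min, 31 members passed in *mip6Δ* and 9 in WT, against 17.8% and 13.3% of all genes, with medians of 1.00 and 0.67. The response had the same sign but was smaller with memory for 31 of the 31 called members in *mip6Δ* and 27 of 28 in WT at 15 min, and for 30 of 31 and 7 of 9 at 20 min. The others had the opposite sign with memory, and of these only *RRP9* in WT at 20 min was itself called higher. Among the 42 members called lower without memory in each strain at 15 min, the memory response was 48.1% of the no-memory response in *mip6Δ* and 40% in WT (medians), and it was largest for *KRR1*, with 78.1% and 76.9%.

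*KRE33* and *RRP5* had the largest memory effects in WT at 15 min, 1.88 ± 0.45 (adjusted p = 0.00375) and 1.85 ± 0.39 (adjusted p = 0.0012, limma). *UTP22* had 1.28 ± 0.23 with the lowest adjusted p of all members (0.00018), and *EMG1*, *BMS1* and *ECM16* had 1.08 ± 0.24, 1.35 ± 0.30 and 1.54 ± 0.40. *RRP7* and *DBP8* had the smallest, 0.051 ± 0.14 (adjusted p = 0.818) and 0.37 ± 0.20 (adjusted p = 0.186). *KRR1* fell deeply in both conditions, and its effect of 0.58 ± 0.33 did not pass (adjusted p = 0.205). By role, 5 of 7 UTPA genes, 5 of 6 UTPB genes, 4 of 4 box C/D genes, 3 of 4 helicase genes, 4 of 6 late and enzyme factors, 2 of 4 genes of the Mpp10 complex with Sas10 and 3 of 8 other processome factors passed in WT, as did *UTP22* and *BMS1* but not *RRP7* and *RCL1*.

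The number of calls changed with the tool and with single libraries. The share of all genes called is given here only for limma on all samples. Counts from the other tools and fits therefore have no background beside them. edgeR on read counts called 8 members in *mip6Δ* and 9 in WT at 15 min and 14 and 1 at 20 min, all higher, and DESeq2 called 12 and 17 at 15 min and 18 and 5 at 20 min. With the replicate number as a block, edgeR called 25 and 26 at 15 min and 26 and 7 at 20 min. Without replicate 2 in all groups, limma called 3 members in *mip6Δ* (*RRP9*, *UTP22* and *EMG1*) and 2 in WT (*RRP9* and *UTP22*) at 15 min, and 6 and 1 at 20 min. *UTP22* was the 1 member called in WT at 20 min there and also the 1 called by edgeR. At 20 min, 15 were called in WT without replicate 1 and 3 without replicate 3, and 17 in *mip6Δ* without replicate 3. Without WT no memory 0 min replicate 3, 16 were called in WT at 20 min, and without WT memory 0 min replicate 1 it was 5. Without the outlying *mip6Δ* library, 13 members were called in *mip6Δ* and 39 in WT at 15 min, and 38 and 22 at 20 min, and the *mip6Δ* median at 15 min was 0.71. All groups share one estimate of the spread, so leaving out that library also changed the counts in WT. The spread between replicates was larger for these genes than for most. The median over genes of the SD within groups was 0.29 log2 units for the members and 0.12 for all genes, and 0.34 and 0.16 in the read counts.

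In *mip6Δ*, *KRE33* and *RRP5* also had the largest memory effects of all members at both times. *KRE33* was at 1401, 1623 and 2239 in *mip6Δ* memory cells and at 196, 507 and 673 in *mip6Δ* no-memory cells at 15 min, and its memory effect on the response was 1.94 ± 0.45 at 15 min and 1.90 ± 0.45 at 20 min. *RRP5* was at 2505, 3042 and 4123 in memory and 469, 800.1 and 1236 in no-memory cells of *mip6Δ*, with effects of 1.89 ± 0.39 and 1.97 ± 0.39. The first replicate of the no-memory group was lowest for both genes. *UTP10* was at 3192, 3587 and 4943 in memory and 603, 1364 and 2085 in no-memory cells of *mip6Δ* at 15 min. *RRP9* had 4035, 3989 and 4319 in memory and 1422, 1803 and 2156 in no-memory cells of *mip6Δ*, beside 4519.8, 4865 and 4385 and 4007, 3421 and 3526 at 0 min, so that its memory samples at 15 and 0 min lay close together. *RRP7* had the smallest effects of all members in *mip6Δ*, 0.026 ± 0.14 at 15 min and 0.08 ± 0.14 at 20 min.

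Between 15 and 20 min, members rose past the threshold in WT no-memory cells. There 14 of 43 were higher at 20 than at 15 min, with a median of 0.61, and 7.83% of all genes were called higher. *KRE33* was at 1348, 634 and 873 at 20 min, against 442, 425 and 429.6 at 15 min (log2 1.07 ± 0.32, adjusted p = 0.0334, limma), and *BMS1* at 2402, 1518 and 1838 against 1051, 939.8 and 1079. For both genes all 20 min samples lay above all 15 min samples. edgeR called 1 member here (*SAS10*), or 13 with the replicate number as a block, and 0 were called by limma without replicate 2 or without replicate 3 and 37 without the outlying *mip6Δ* library. In *mip6Δ* memory, *mip6Δ* no memory and WT memory cells, limma, edgeR and DESeq2 called 0 of 43, although 43 of 43 had a positive difference in each, with medians of 0.33, 0.36 and 0.34. Without the outlying library the *mip6Δ* no-memory median was -0.027. At an adjusted p under 0.05 (limma), 2.9%, 1.9% and 2.97% of all genes were called in these 3 comparisons. At an unadjusted p under 0.05 there were 8, 7 and 5 members, and the share of all genes at that limit is not given here. The difference between 20 and 15 min with memory minus that without had medians of -0.034 in *mip6Δ* and -0.31 in WT, and the *mip6Δ* median was 0.035 with edgeR and 0.33 without the outlying library. For this contrast limma, edgeR and DESeq2 called 0 members, limma had 0 at an unadjusted p under 0.05, and 0.081% and 0% of all genes were called.

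The deletion of *MIP6* was compared with WT in each combination of condition and time. No member passed the threshold with limma, edgeR or DESeq2 in any of the 6 comparisons. At an unadjusted p under 0.05 (limma) the counts were 0 of 43 in memory cells at 0, 15 and 20 min, and 1, 0 and 9 of 43 in no-memory cells. The share of all genes at an unadjusted p is not given here. At an adjusted p under 0.05 it was 0.113%, 0.0162% and 0.0162% in memory cells and 0.292%, 0.0162% and 0.0162% in no-memory cells. Averaged over the 6 comparisons, the differences ranged from -0.16 ± 0.12 (*DIP2*) and -0.15 ± 0.13 (*UTP10*) to 0.073 ± 0.082 (*UTP11*) and 0.082 ± 0.10 (*SAS10*), with 0 members called by the 3 tools, 0 at an unadjusted p under 0.05 and 9.09% of all genes called. Without replicate 1 in all groups, 4 members (*UTP9*, *UTP6*, *SOF1* and *BFR2*) were called higher in *mip6Δ* in this average.

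The direction of the uncalled differences varied with time and, at 15 min, with the tool. The difference was positive for 43 of 43 members at 0 min in both conditions, with medians of 0.18 in memory and 0.26 in no-memory cells. At 15 min it was negative for 40 of 43 in memory cells and 34 of 43 in no-memory cells, with medians of -0.14 and -0.12. The last of these medians was 0.063 with edgeR, 0.06 with DESeq2 and 0.27 without the outlying *mip6Δ* library, and the median in memory cells was 0.073 without replicate 1. At 20 min it was negative for 37 of 43 in memory cells and 43 of 43 in no-memory cells, with medians of -0.14 and -0.35. The heat response of *mip6Δ* minus that of WT had medians of -0.31 with memory and -0.37 without at 15 min, and of -0.31 and -0.59 at 20 min. No member and 0.0% of all genes passed an adjusted p of 0.05 in any of these 4 (limma), and edgeR and DESeq2 called 0 members. At an unadjusted p under 0.05 there were 0, 0, 0 and 22 members. The share of all genes at that unadjusted limit is not given here, so the 22 have no background beside them. The memory effect on the response did not differ past the threshold between *mip6Δ* and WT for any member either, with medians of the difference of 0.041 at 15 min and 0.30 at 20 min. At 15 min the sign of this median turned with edgeR (-0.036), with DESeq2 (-0.04) and without the outlying library (-0.32). There too 0 members passed an unadjusted p under 0.05, edgeR and DESeq2 called 0, and 0.0% of all genes were called. *DHR2* had the largest difference between strains in the 20 min response without memory, -1.05 ± 0.42, and was at 188, 262 and 285 in *mip6Δ* and 468, 276 and 301 in WT no-memory cells at 20 min.

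Other genes of ribosome production were set beside the members, from lists drawn up by name. At 15 min in WT memory and WT no-memory cells, 26 and 35 of 37 other 40S assembly genes were lower, 39 and 54 of 54 genes of 60S assembly, and 6 and 8 of 8 genes of RNA polymerase I, which makes the precursor. Their medians were -0.67 and -1.42, -0.72 and -1.56, and -0.86 and -1.85, beside -0.67 and -1.59 for the members. Among the other 40S assembly genes, 2 were called higher in each of these conditions, and *HRR25* was highest, with 0.33 and 0.52. The 54 RPS genes analysed fell further, with medians of -1.92 with memory (53 lower) and -4.04 without (54 lower). *RPS0B*, which encodes a protein of the mature 40S subunit, fell by 5.06 without memory. At 0 min in WT, 20 of 37 other 40S genes and 20 of 54 genes of 60S assembly were higher in memory than in no-memory cells, with medians of 0.53 and 0.50. The RPS genes had a median of -0.037 there with 0 of 54 called, and RNA polymerase I 0.30 with 1 of 8. In *mip6Δ*, 13 of 37 other 40S genes, 12 of 54 genes of 60S assembly, 1 of 8 of RNA polymerase I and 1 of 54 RPS genes were higher with memory at 0 min, with medians of 0.47, 0.43, 0.24 and 0.16. The memory effect on the 15 min response in WT had a median of 2.06 over the RPS genes (54 of 54 called), and of 0.78 (16 of 37), 0.91 (36 of 54) and 1.14 (6 of 8) over the other lists. The differences between lists were not tested.

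**Figure D4:**
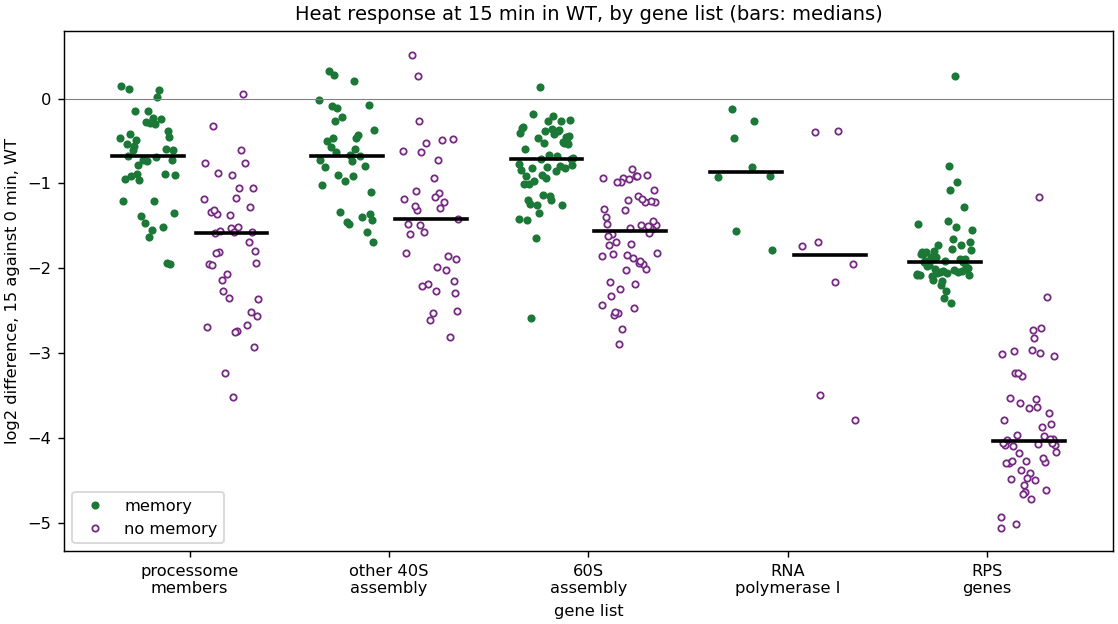
Log2 difference between 15 and 0 min in WT memory (filled) and WT no-memory (open) cells for each gene of 5 lists, with medians as black bars. The medians of the 3 assembly lists and of RNA polymerase I lie between -0.86 and -0.67 with memory and between -1.85 and -1.42 without, and those of the RPS genes at -1.92 and -4.04.

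Of 8 genes for regulators of ribosome genes, *TOD6*, which encodes a repressor that binds PAC, was higher in WT memory than in WT no-memory cells at 0 min (log2 1.05, adjusted p = 0.00203, limma) and at 15 min (1.57, adjusted p = 7.04e-06). Its paralog *DOT6* had 0.19 (adjusted p = 0.0463) and -0.13 (adjusted p = 0.143). *STB3*, whose product binds RRPE, was lower with memory at 15 min (-0.28, adjusted p = 0.000432). Of the activators of ribosomal protein genes, *FHL1* was higher with memory at 0 min (0.19, adjusted p = 0.0171) and at 15 min (0.43, adjusted p = 9.44e-07), and *IFH1* at 15 min (0.96, adjusted p = 2.99e-05) but not past the threshold at 0 min (0.35). *SFP1*, an activator of ribosome genes, had 0.033 at 0 min and -0.053 at 15 min, the kinase gene *SCH9* -0.024 and 0.092, and the corepressor gene *CRF1* 0.046 and -0.067, none past the threshold. The heat responses at 15 min in WT memory and WT no-memory cells were 0.47 and 0.73 for *STB3* and 0.43 and 0.54 for *CRF1*. They were -0.59 and -0.28 for *DOT6* and -0.33 and -0.58 for *FHL1*, all past the threshold. *TOD6* had -0.13 and -0.66, *SCH9* -0.14 and -0.26 and *SFP1* 0.085 and 0.17, past it only without memory. *IFH1* had 0.51 and -0.10, past it only with memory. Across the 36 samples, each member's log2 level followed the mean of the other 42, with a median Pearson r of 0.98, and r was over 0.9 for 39 of 43. It was lowest for *RRP7* (0.58) and *LCP5* (0.79). For deviations from the group means the median r was 0.95 and was lowest for *UTP20* (0.63) and *RRP7* (0.77). These values share their libraries, and the 43 genes are not independent observations. The same r was not computed for the other lists or for all genes, so it does not set the members apart from them.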

How the data were processed

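Total RNA was sequenced from 36 yeast samples (12 groups of 3) after a TruSeq library preparation. Per the study's methods, the authors checked reads with FastQC, trimmed them with Trimmomatic, mapped them to sacCer3 with HISAT2 and derived read counts per gene after StringTie (versions and the strand setting of the counting are not given in the sources used here). Those read counts were deposited for 6403 genes. The authors then removed genes of low count with NOISeq, scaled by TMM and removed hidden batches with ARSyN, and the normalized counts they deposited for 6172 genes are a linear signal that is not whole. Whether ARSyN was told the groups is not given in the sources used here. Removing hidden batches can narrow the spread between replicates, so tests on the read counts were run as alternatives.

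Log2(normalized count + 1) was fitted with limma 3.58.1 (12 group means, trended variance, 24 residual degrees of freedom, 37 contrasts, R 4.3.3), with Benjamini-Hochberg adjustment over 6172 genes and a threshold of 0.05. Fold changes are on the log2(value + 1) scale, and ± after a log2 difference is the SE. Alternatives were a pseudocount of 10, a mean of at least 10, equal sums, edgeR 4.0.16 (quasi-likelihood) and DESeq2 1.42.0 on read counts, the replicate number as a block, and leaving out each replicate or one library. Shares of all genes called are those of the limma fit on all samples and not of any alternative. Of the left-out libraries, *mip6Δ* no memory 15 min replicate 1, WT no memory 0 min replicate 3 and WT memory 0 min replicate 1 were chosen after seeing the data, as were the contrasts of the heat response between strains. The members, comparison lists and roles were chosen with earlier results of these data known, although the members were taken by name and not by their expression values. Sample values are given in some groups for a part of the members, chosen by role or by their place at the ends of a comparison. No sample values are given for the Mpp10 complex with Sas10. Genes that are no members are named from the comparison lists or as checks of strain and heat shock. The RPS list holds the 54 genes analysed, and *RPS0A* and *RPS22A* are not analysed here.

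Samples were grouped by title. The labels describe a culture split into memory and no-memory flasks but do not say that a replicate number marks it, and p-values measure the spread between these samples. In a check of the numbers on normalized counts, deviations of same-numbered samples from their group means correlated over 0.1 in all 3 pairs for memory against no memory at 20 min in WT and for the 4 comparisons of 20 with 15 min, of 24 comparisons checked, and on read counts in 13 of 24. Motifs were counted with Python 3.11.15.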

Additional observations from a re-analysis of the deposited data

Results flagged for a closer look

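The heat response differed between memory and no-memory cells by the test of that difference itself (limma, Benjamini-Hochberg adjusted p under 0.05). In *mip6Δ* this held for 31 of the 43 processome and 40S assembly genes at 15 min and for 31 at 20 min. In WT it held for 28 of 43 at 15 min and for 9 at 20 min. All of these differences were positive, that is, in memory cells the fall was smaller or the log2 difference lay above 0. Of those above 0, only *RRP9* in WT at 20 min was itself called higher with limma, and it was not with edgeR. Over all genes, 16.4% at 15 min and 17.8% at 20 min were called higher in *mip6Δ*, and 17.5% and 13.3% in WT. On read counts, edgeR called 8 and 14 members in *mip6Δ* and 9 and 1 in WT. Leaving out replicates or single libraries gave as few as 3 and 6 in *mip6Δ* and 2 and 1 in WT. The shares of all genes given here are those of limma on all samples, and none is given for edgeR or the leave-out fits.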

How the results depend on the processing

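With each other tool, scaling and filter, 43 of 43 members were higher in memory cells at 15 and 20 min in both strains, except for 42 in *mip6Δ* at 15 min with edgeR and with DESeq2. Leaving out replicates or single libraries gave 42 to 43 of 43 in *mip6Δ* and 43 in WT at 15 min, and 43 in *mip6Δ* and 37 to 43 in WT at 20 min. No call of a named member and no median of a comparison with called members changed direction under an alternative. Among comparisons with no member called, 6 medians of the members turned sign under 1 or more alternatives. These were 20 against 15 min in *mip6Δ* no-memory cells (0.36, and -0.027 without *mip6Δ* no memory 15 min replicate 1), the memory effect on 20 against 15 min in *mip6Δ* (-0.034, and 0.021 to 0.33 where it turned), *mip6Δ* against WT at 15 min in no-memory cells (-0.12, and 0.0097 to 0.29) and in memory cells (-0.14, and 0.073 without replicate 1), their average over 6 combinations (-0.049, and 0.014 to 0.12), and *mip6Δ* against WT in the memory effect at 15 min (0.041, and -0.32 to -0.0055). Of 216 values (called differences of named members and medians over members), each computed under 14 alternatives, 2846 of 3024 stayed on their side of the threshold or within the spread, 164 lost their call and 14 moved by more than the spread. Of the lost calls, 50 came from leaving out replicate 2, 26 from edgeR and 22 from DESeq2.

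The share of all genes called is given here for no alternative, so counts under the alternatives have no background beside them. Counts of members that moved by over 1.5 times were these. With equal sums, 17 members in *mip6Δ* and 29 in WT were higher with memory at 0 min, 24 were higher at 20 than at 15 min in WT no-memory cells, and 1 (*UTP20*) in *mip6Δ* memory cells. With edgeR on read counts, 6 were higher with memory at 0 min in WT, 1 at 20 against 15 min in WT no-memory cells, and the memory effect on the response was called for 8 (*mip6Δ*) and 9 (WT) at 15 min and 14 (*mip6Δ*) and 1 (WT) at 20 min. With DESeq2 the last 4 counts were 12, 17, 18 and 5. Leaving out replicates or single libraries gave 3 to 32 (*mip6Δ*) and 2 to 39 (WT) for the memory effect at 15 min, and 6 to 38 and 1 to 22 at 20 min. It gave 0 to 17 (*mip6Δ*) and 0 to 30 (WT) for memory against no memory at 0 min, where 3 remained in *mip6Δ* without its memory 0 min replicate 2. For the heat response it gave 15 to 39 in WT memory cells at 15 min, and 14 to 37 in *mip6Δ* memory, 5 to 28 in WT memory and 21 to 41 in WT no-memory cells at 20 min. For 20 against 15 min it gave 0 to 37 in WT no-memory and 0 to 1 (*EMG1*) in WT memory cells, and for *mip6Δ* against WT on average 0 to 4. The cause was not tested, beyond that fewer samples and one shared spread enter these fits.

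With the replicate number as a block, limma called the memory effect on the response for 30 (*mip6Δ*) and 27 (WT) members at 15 min and for 26 and 6 at 20 min, and the 14 members higher at 20 than at 15 min in WT no-memory cells became 11. No count of the limma fit moved by over 1.5 times under the block, whereas edgeR with the block called 25 and 26 at 15 min, 26 and 7 at 20 min, and 13 at 20 against 15 min, far closer to limma than edgeR without it. Searching the motifs before the coding start only gave 38 members with PAC, 34 with RRPE and 31 with both. No member had under 60 reads in any library, and the spread between 3 replicates limits the precision.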
